A study of Mus musculus with 21 samples.

Results

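The sites described here are 1359 regions of the mouse genome that held a Foxa3 peak 48 hours after fibroblasts were given Foxa3 and Hnf4a, and no Foxa peak in any of the other 5 Foxa maps of the study. The sites were chosen by the presence and absence of called peaks. They were found by pooling the 6 Foxa peak lists (Foxa1, Foxa2 and Foxa3, in iHep cells and at 48 hours), merging peaks that overlapped by 1 bp or more, and keeping the merged regions whose only peak came from the 48-hour Foxa3 list. They make up 4.63% of the 29339 merged Foxa regions and 24.4% of the 5579 regions with a 48-hour Foxa3 peak. Each consists of exactly 1 peak. Because the peak lists chose these sites, the shares just given, and all values of the 48-hour Foxa3 list below, are descriptions.

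Chromatin immunoprecipitation with sequencing (ChIP-seq) was done on C57BL/6 mouse cells. Embryonic fibroblasts of 13.5 days post coitum received retroviruses for Hnf4a together with Foxa3, Foxa2 or Foxa1. They were examined as established induced hepatocyte-like (iHep) cells or 48 hours after infection, with 1 Foxa and 1 Hnf4a library per line and stage. A line here means the cells given a particular Foxa protein, and all 6 groups carry the Hnf4a virus. The antibody in a Foxa library was against the Foxa protein that its line had received. An established iHep culture has passed through conversion and growth that the 48-hour culture has not, and the share of converted cells in either is not stated in the labels. The iHep Foxa3 library carries the title code R170 and replicate number 3, while the 48-hour Foxa3 library carries R209 and number 1, and the meaning of the codes is not given. With 1 library per group there is no replicate spread. No p-value is given, and the 95% intervals on shares (Wilson) and medians (order statistics) cover counting error only. Adjacent peaks can belong to one bound stretch, which these intervals ignore. The files list peaks without reads, so the depth is unknown, and a site without an iHep peak is a site not called in that list, which is not the same as a site free of Foxa3.

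Foxa1, Foxa2 and Foxa3 are forkhead transcription factors that bind DNA through a winged-helix domain. They are known as pioneer factors, able to bind sites within closed chromatin, and they act in the development of the liver. Hnf4a is a nuclear receptor that drives much of the gene expression of hepatocytes, and the pair of Hnf4a with any 1 Foxa protein converts fibroblasts into hepatocyte-like cells.

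The sites were set beside 4003 lasting Foxa3 regions, which held Foxa3 peaks in iHep cells and at 48 hours and no Foxa1 or Foxa2 peak. The remaining 217 regions with a 48-hour Foxa3 peak also held a Foxa1 or Foxa2 peak. Regions seen only in the 48-hour list of another Foxa protein, 3146 for Foxa2 and 1619 for Foxa1, served as a further comparison.

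The sites seen only at 48 hours were mostly weak and narrow peaks of their list, with a small number of strong ones. The score is the authors' own value for each peak and its definition is not stated, so it was used within the 48-hour Foxa3 list only. The median score was 11.8 (interval 11.42 to 11.96) at the 48-hour-only sites and 15.8 (15.6 to 16.2) at the lasting regions. The middle of the distribution ran from 9.43 to 15.1 (quartiles) for the 48-hour-only sites and from 11.9 to 23.0 for the lasting regions. The whole ranges overlapped almost completely, at 5.23 to 339 and 5.57 to 535. The share of 48-hour Foxa3 regions that were seen only at 48 hours was 45.0% (40.9% to 49.1%) in the lowest scoring decile of the list, 20.4% (17.3% to 24.0%) in decile 6, 8.78% (6.71% to 11.4%) in decile 9 and 8.98% (6.88% to 11.6%) in decile 10. The share fell no further after decile 9. Of the 557 regions of decile 10, which begins at a score of 32.5, 50 were seen only at 48 hours. Of the 100 highest scoring regions of the list, 6 were seen only at 48 hours and 80 were lasting.

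**Figure D1:**
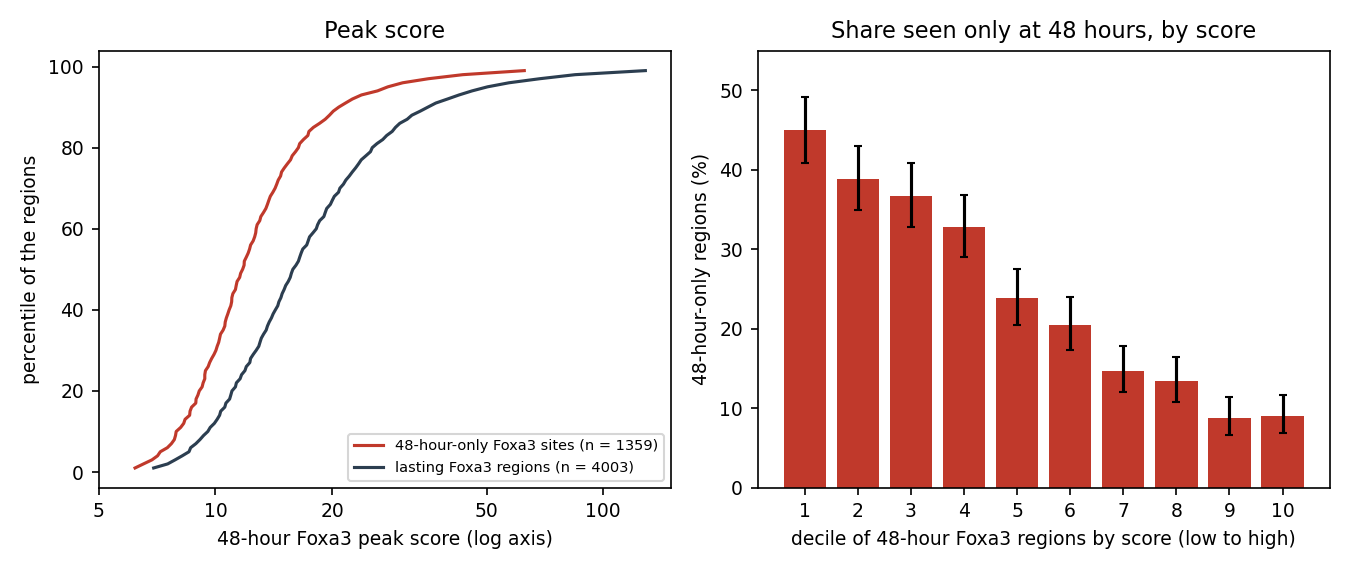
Left, cumulative curves (1st to 99th percentile) of the 48-hour Foxa3 peak score, on a log axis, for the 1359 sites seen only at 48 hours and the 4003 lasting regions. Right, share of 48-hour Foxa3 regions seen only at 48 hours in each decile of the list by score, with 95% Wilson intervals. The share is 45.0% in the lowest decile and 8.98% in the highest.

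The 48-hour-only sites were also narrower under the rule of 1 bp, although not under every rule. The median width was 455 bp (445 to 466) at the 48-hour-only sites and 569 bp (557 to 581) at the 48-hour peaks of the lasting regions. With peaks matched by centres within 200 bp the order turned, with 560 bp (541 to 578) at the 48-hour-only sites and 526 bp (516 to 537) at the lasting regions. Under the rule of 1 bp both ranges began at 334 bp, the narrowest peak of the list, and the widest 48-hour-only site spanned 4981 bp. Among 48-hour Foxa3 peaks of 334 to 400 bp, 36.0% (33.4% to 38.7%) were seen only at 48 hours, and among those of 1001 to 2000 bp 13.6% (76 of 559) were. Above 2000 bp the share was 21.3% (14.1% to 31.0%), from 19 of 89 regions. These 19 very wide sites had scores of 11.5 to 214 with a median of 28.7, and 9 of them lay in the runs described below.

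The highest scoring 48-hour-only site lay at chr4:116862219-116863429 (mm9, as are all positions here), was 1211 bp wide and had a score of 339. This score gave it rank 17 among the peaks of the 48-hour Foxa3 list. Its nearest iHep Foxa3 peak was 33283 bp away. Next came a peak of 4981 bp at chr5:91187975-91192955, with a score of 214, whose nearest iHep Foxa3 peak was 375698 bp away but which had a 48-hour Foxa1 peak 2687 bp away. A site at chr8:32259904-32260986 had a score of 171 and lay 17942 bp from an iHep Foxa3 peak. None of the 10 highest scoring sites overlapped any Hnf4a peak. Over all 1359 sites only 30 (2.21%) did, so the lack of any among 10 sites does not set the strong sites apart.

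The other 7 of these 10 scored between 68.1 and 158. Chromosome 11 held 3 of them. The first, at 94797247 to 94800487 with a score of 158, was the strongest member of a run of sites. The second, at 101465917 to 101466587, scored 87.9. The third, at 81859034 to 81862413, scored 78.9 and lay 715117 bp from the nearest iHep Foxa3 peak. The remaining 4 lay at chr15:78756925-78758050 (84.9), chr1:120355290-120356115 (84.4), chr18:61824653-61825667 (68.3) and chr2:160192395-160193317 (68.1), with the scores in brackets. Among all 10, the smallest gap to an iHep Foxa3 peak was 7602 bp, at the chromosome 15 site. All 10 thus lay more than 1 kb from an iHep Foxa3 peak, as did most of the 1359 sites, of which 219 (16.1%) lay within 1 kb.

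The distance to later Foxa3 binding ranged from a few bases to more than 1 Mb. The median gap from a 48-hour-only site to the nearest iHep Foxa3 peak was 39210 bp (33712 to 44130). An iHep Foxa3 peak lay within 1 kb of 219 sites (16.1%, interval 14.3% to 18.2%), within 10 kb of 429 (31.6%, 29.2% to 34.1%) and within 100 kb of 940 (69.2%, 66.7% to 71.6%). The share within 10 kb was 61.4% with centres matched within 200 bp, 75.3% with all lists at equal length and 59.9% with the upper 50% of all lists. It was 19.4% with peaks within 500 bp merged and 18.5% when sites with another Foxa peak within 1 kb were left out. Under the rule of 1 bp the other 419 sites were more than 100 kb away, and 62 of those were more than 1 Mb away. Sites near an iHep Foxa3 peak were not the stronger ones. The median score was 10.9 (10.3 to 11.6) at the 219 sites within 1 kb and 12.3 (11.9 to 12.7) at the 419 sites beyond 100 kb.

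Of the 219 sites within 1 kb of an iHep Foxa3 peak, 100 were next to an iHep peak whose own region also held a 48-hour Foxa3 peak. The other 119 had within 1 kb only iHep Foxa3 peaks whose regions held no 48-hour Foxa3 peak. The peaks of the iHep Foxa3 list were also narrower, with a median of 248 bp against 538 bp in the 48-hour Foxa3 list, and the part of this difference in the missed overlaps was not tested.

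The smallest gaps mark the edge of the rule. A 48-hour-only site at chr8:74763519-74764030 stood 3 bp from an iHep Foxa3 peak, one at chr5:137967393-137967741 stood 7 bp away, and one at chr3:157196741-157197109 stood 11 bp away. Their scores were 9.47, 10.2 and 11.6. Just outside the rule, 48-hour Foxa3 peaks at chr17:33392037-33392442, at chr14:22804366-22804881 and at chr16:33250871-33251245 shared 1, 5 and 6 bp with an iHep Foxa3 peak, and scored 10.2, 10.8 and 8.55. At the other end, the sites farthest from any iHep Foxa3 peak lay at chrX:120217166-120217667, with a gap of 10902577 bp, at chrX:83022268-83022707, with 7980978 bp, and at chr1:113760842-113761457, with 5067626 bp. The first of these was also 5390371 bp from a peak of any other Foxa list, whereas the second had an iHep Foxa2 peak 5384 bp away.

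Peaks of the other Foxa proteins were farther off. Within 1 kb of a 48-hour-only Foxa3 site there was an iHep Foxa2 peak in 17 cases (1.25%), an iHep Foxa1 peak in 7 (0.515%), a 48-hour Foxa2 peak in 11 (0.809%) and a 48-hour Foxa1 peak in 10 (0.736%). The median gaps to these lists were 79625 bp, 247648 bp, 131213 bp and 125393 bp in the same order. The lists differed in length. The iHep Foxa3, Foxa2 and Foxa1 lists held 12661, 10330 and 3435 peaks. The 48-hour Foxa3, Foxa2 and Foxa1 lists held 5690, 6827 and 6781. The part of list length in these gaps was not tested. There were 789 sites with no peak of any other Foxa list within 10 kb, and 96 with none within 100 kb.

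The same gap was measured for sites seen only at 48 hours for the other proteins, each against the iHep list of its own protein. Within 1 kb lay an iHep peak of the same protein at 16.1% of the Foxa3 sites, 1.49% (1.13% to 1.98%) of the 48-hour-only Foxa2 regions and 0.556% (0.293% to 1.05%) of the 48-hour-only Foxa1 regions. Within 100 kb the shares were 69.2%, 55.6% (53.8% to 57.3%) and 27.0% (24.9% to 29.2%). Lasting regions were closer to iHep Foxa3 peaks outside their own region, with 37.7% (36.3% to 39.3%) within 1 kb and 84.5% within 100 kb. For them the gap was measured from the edge of the merged region. The iHep lists of Foxa3, Foxa2 and Foxa1 held 12661, 10330 and 3435 peaks, with median widths of 248, 461 and 412 bp. The part of list length and peak width in these shares was not tested.

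**Figure D2:**
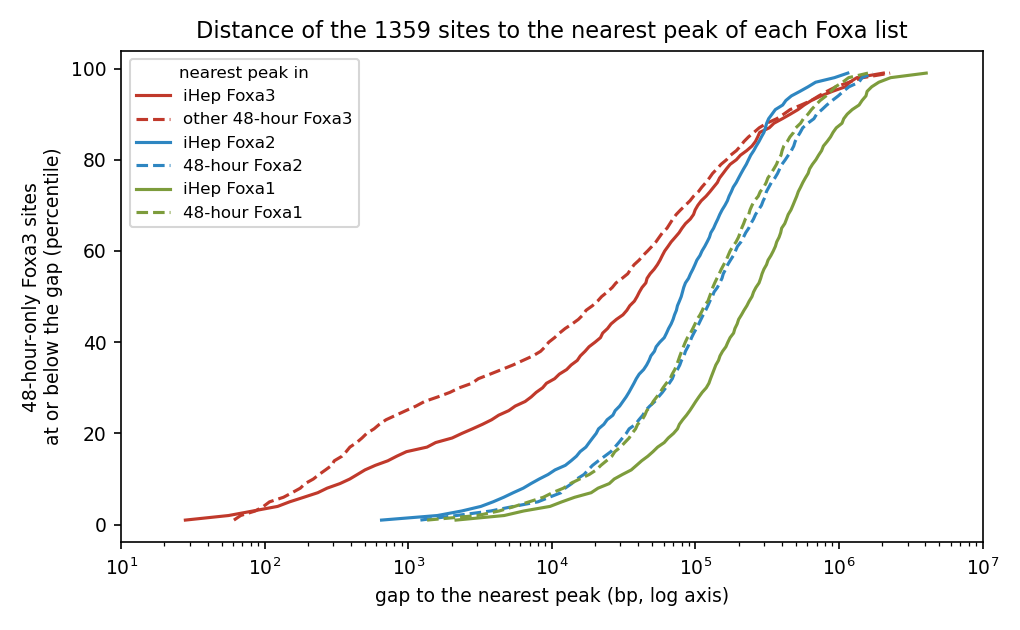
Cumulative curves of the gap, in bp on a log axis, from the 1359 sites seen only at 48 hours to the nearest peak of each Foxa list (solid lines for iHep lists, dashed for 48-hour lists). The curves for Foxa3 rise early, with 16.1% of sites within 1 kb of an iHep Foxa3 peak and 25.2% within 1 kb of another 48-hour Foxa3 peak. Those for Foxa1 and Foxa2 reach at most 1.25% at that distance.

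The 48-hour-only sites were also close to each other. Another 48-hour Foxa3 peak lay within 1 kb of 343 of them (25.2%, interval 23.0% to 27.6%) and of 13.6% (12.5% to 14.7%) of the lasting regions. The median gap to the nearest other 48-hour Foxa3 peak was 22206 bp for the 48-hour-only sites and 45363 bp for the lasting regions. Of the 343 sites, 247 were next to another 48-hour-only site, 110 next to a lasting region, and 20 next to both. For later binding the order was the opposite. Within 50 kb there were on average 2.01 iHep Foxa3 peaks of other regions around a 48-hour-only site and 3.09 around a lasting region, and 44.5% of the 48-hour-only sites against 27.8% of the lasting regions had none. In the 48-hour-only Foxa2 and Foxa1 regions, another 48-hour peak of the same protein lay within 1 kb in 3.50% and 2.66% of cases.

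Part of the sites lay in long runs. When sites up to 10 kb apart were joined, the 1359 sites fell into 1126 loci, of which 1001 were single sites. There were 12 runs of 5 or more sites, which together held 95 sites (6.99%). The lasting regions gave 7 such runs with 63 regions (1.57%). The gap of 10 kb and the minimum of 5 were chosen after the data were seen. The 12 runs were 5691 to 42132 bp long and lay on 9 chromosomes. Peaks of the 48-hour Foxa3 list covered 23.1% to 90.8% of their length. No iHep Foxa3 peak lay within 11 of the 12 runs, no Hnf4a peak of either stage within 11, and no peak of any of the other 5 Foxa lists within 9. By the rule the sites themselves hold no peak of the other 5 Foxa lists, so only the gaps between sites could hold one. The low counts of Foxa peaks within the runs are thus partly set by the rule, and no conclusion is drawn from them.

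The longest run lay at chr1:45368159-45410290 and held 19 sites, the nearest iHep Foxa3 peak being 1163133 bp away. Its first site, at 45368159 to 45369995, was 1837 bp wide with a score of 61.0, and the other 18 scored between 7.03 and 20.9. The run at chr11:94794548-94815951 held 12 sites, which covered 68.1% of it. The third site scored 158 and the other 11 scored at most 19.4. A run at chr2:117937363-117954040 held 10 sites, with a score of 62.4 at its first site and at most 16.4 at the others. In each of these runs a single strong site stood beside many weak ones.

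A run at chr6:117118358-117133621 was the most fully covered, at 90.8%, by 6 sites. Its members were wide, with a median of 2347 bp, and scored 66.7, 13.0, 9.81, 6.52, 21.6 and 32.0 in the order of their positions. A run of 5 sites at chr18:52674030-52689418 scored 55.2 at its last site and between 8.19 and 16.5 at the others. The strongest site was thus the first of its run on chromosome 6 and the last on chromosome 18. Counting all runs, the highest score belonged to a site at either end in 10 of the 12. At 2 of these 10 the next highest score was nearly as large, with ratios of 1.06 and 1.03. Among the 7 runs of lasting regions the highest score was at an end in 1. No strand or gene could be set beside the runs, since no mm9 annotation was used here.

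The exception among the runs lay at chr2:50982986-50997781. It held 10 sites seen only at 48 hours interspersed with 2 lasting regions, had 2 iHep Foxa3 peaks inside it, and held the only Hnf4a peaks found within any run, 2 in iHep cells of the Foxa3 line and 1 in iHep cells of the Foxa2 line. It was the only run with lasting regions between its first and last site. Beyond their ends, other runs had iHep Foxa3 peaks nearby. The gaps were 1009 bp at chr10:126729889-126735579, 1301 bp at chr2:13497615-13505757 and 1467 bp at chr16:85792147-85800207.

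**Figure D3:**
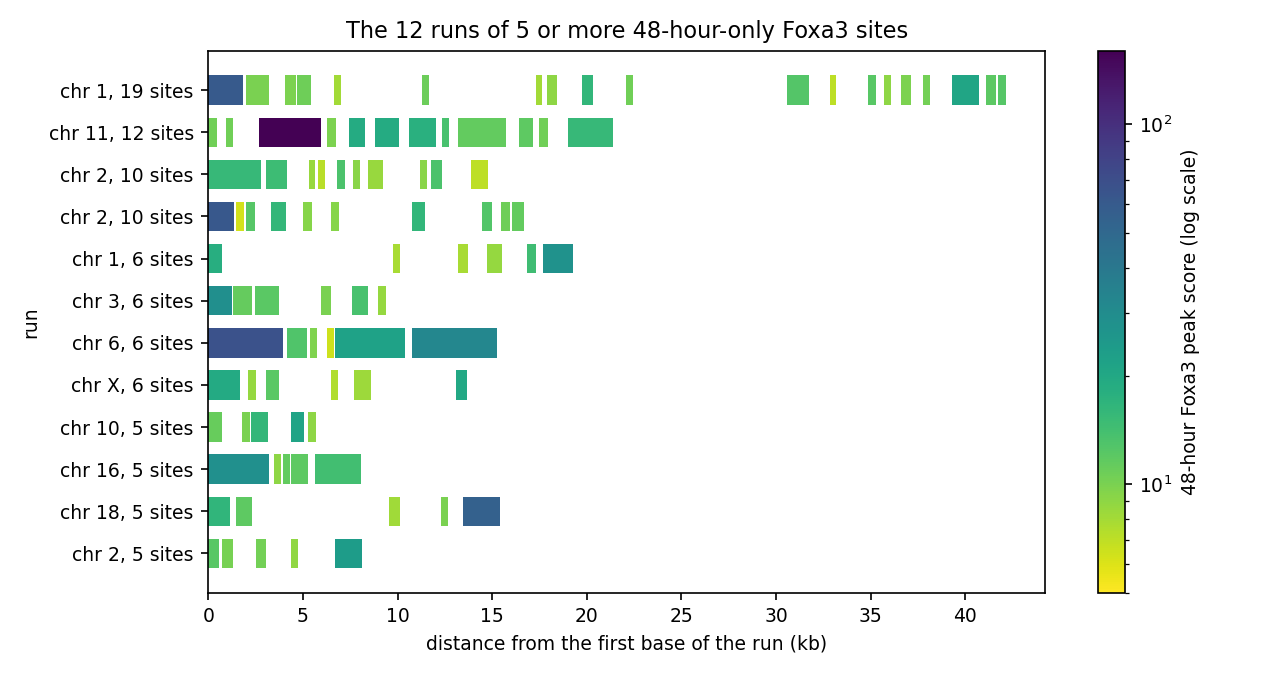
The 12 runs of 5 or more 48-hour-only Foxa3 sites with gaps of up to 10 kb, 1 run per row, with each site drawn to scale at its distance in kb from the first base of the run and coloured by its 48-hour Foxa3 peak score (log scale). Dark bars are strong sites. The strongest site is at an end of the run in 10 of the 12 rows. Ends are the first and last 48-hour-only sites of a run.

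The sites were spread over all autosomes and chromosome X. The largest numbers lay on chromosome 7 (116 sites), chromosome 11 (109) and chromosome 2 (98). These were also the chromosomes with the most 48-hour Foxa3 regions, with 419, 491 and 414. On the autosomes the share of 48-hour Foxa3 regions seen only at 48 hours lay between 20.6% (15.6% to 26.6%) on chromosome 13 and 30.3% (23.5% to 38.0%) on chromosome 18. On chromosome X it was 40.0% (30.9% to 49.8%), from 40 of 100 regions, and its interval lay wholly above the 24.4% of all regions. Of the 40 X sites, 6 formed 1 run, which the interval counts as separate sites. From an iHep Foxa3 peak, 24 of the 40 were more than 100 kb away. Chromosome X held 1.45% (1.25% to 1.67%) of all iHep Foxa3 peaks and 1.76% (1.45% to 2.13%) of all 48-hour Foxa3 peaks, which are overlapping intervals. It held 2.94% of the 48-hour-only Foxa3 sites, 1.45% of the lasting regions, 1.72% of the 48-hour-only Foxa2 regions and 2.04% of the 48-hour-only Foxa1 regions. Chromosome 3 was the only autosome whose interval, 25.3% to 35.5%, lay wholly above 24.4%, with a share of 30.2%. It also held a run of 6 sites. The intervals of all chromosomes were inspected without correction for their number.

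**Figure D4:**
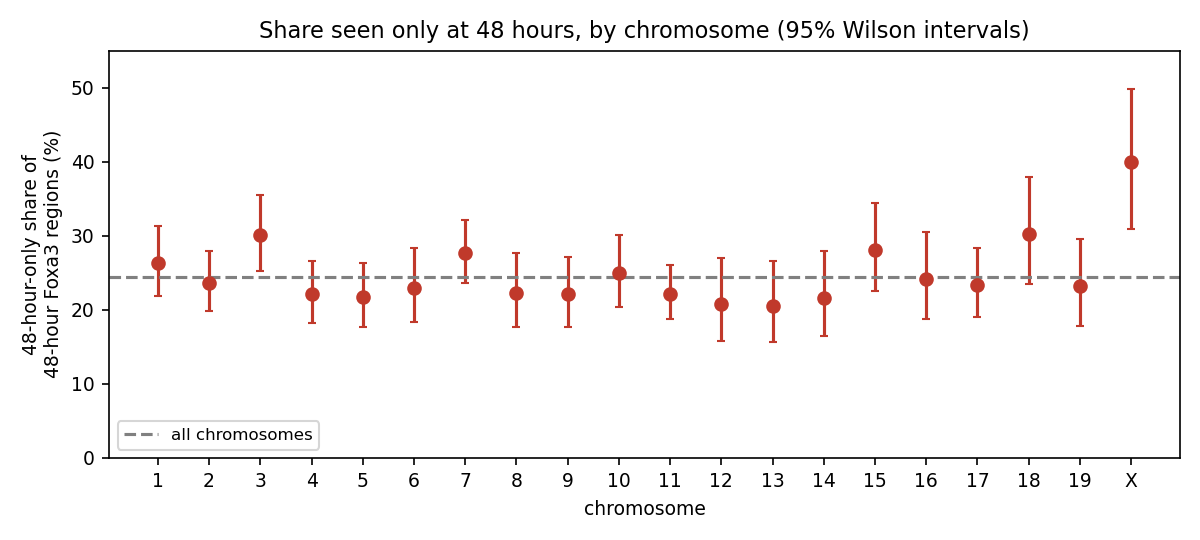
Share of 48-hour Foxa3 regions seen only at 48 hours on each chromosome, in percent, with 95% Wilson intervals. The dashed line marks the 24.4% of all chromosomes. Chromosome X, at 40.0%, is the highest point, and the autosomes lie between 20.6% and 30.3%.

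The Foxa3 line also received Hnf4a, and the Hnf4a lists were not used in choosing the sites. Few of the 48-hour-only sites held an Hnf4a peak at either stage. In the Foxa3 line, 18 of 1359 sites (1.32%, interval 0.839% to 2.08%) overlapped an Hnf4a peak of iHep cells and 1 (0.0736%, 0.0130% to 0.416%) an Hnf4a peak of the 48-hour cells. Over all merged Foxa regions, counted over the whole region, the same overlaps occurred at 3.8% and 0.16%. At the lasting regions, counted over their 48-hour Foxa3 peaks, they occurred at 343 of 4003 (8.57%, 7.74% to 9.48%) and 6 of 4003 (0.150%, 0.0687% to 0.327%). The intervals of the iHep shares do not overlap. Those of the 48-hour shares do overlap, but this depended on the rule. With sites chosen from the Foxa3 lists alone, 1.84% (1.27% to 2.66%) of the 48-hour-only sites and 0.145% (0.0665% to 0.316%) of the lasting regions held a 48-hour Hnf4a peak. With peaks matched by centres within 200 bp, the shares were 0.766% (0.491% to 1.19%) of the 48-hour-only sites and 0.130% (0.0505% to 0.334%) of the lasting regions. Both settings admit sites in 3 dense blocks of 48-hour Hnf4a peaks, which hold none of the 1359 sites. Without these blocks, an alternative chosen after the data were seen, the shares were 0.0694% and 0.122% of the 48-hour-only sites. Those of the lasting regions were 0.145% and 0.130%, and the intervals overlap. The blocks were defined from the 48-hour Hnf4a lists themselves. Leaving them out was therefore bound to lower a share that counts peaks inside them, and no conclusion is drawn from the fall. The 48-hour Hnf4a list of the Foxa3 line is short, with 370 peaks, against 2506 in iHep cells.

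The iHep Hnf4a list of the Foxa3 line carries the same title code, R170, as the iHep Foxa3 list whose absence defines the sites, and what the shared code contributes to the contrast was not tested. The iHep Hnf4a lists of the other lines have other codes. In the Foxa2 line 16 of the 48-hour-only sites (1.18%, 0.726% to 1.90%) held an iHep Hnf4a peak, against 2.27% (1.86% to 2.78%) of the lasting regions and 2.76% of all Foxa regions. In the Foxa1 line the numbers were 10 sites (0.736%, 0.400% to 1.35%), 1.67% (1.32% to 2.12%) and 2.02%. In both lines the 48-hour-only sites were below the lasting regions, and the intervals overlap slightly. The 48-hour Hnf4a lists of the Foxa2 and Foxa1 lines overlapped 1 site each, beside 0.266% and 0.31% of all Foxa regions.

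The contrast in iHep cells of the Foxa3 line was present on both sides of the median score of the 48-hour Foxa3 regions. Scores were not matched within either side. Above this median, a score of 14.7, iHep Hnf4a peaks lay at 1.91% (0.927% to 3.88%) of 367 sites and 9.23% (8.12% to 10.5%) of 2296 lasting regions. At or below that score they lay at 1.11% (0.620% to 1.97%) of 992 sites and 7.67% (6.50% to 9.03%) of 1707 lasting regions. With every peak replaced by a window of 400 bp at its centre, chosen after the data were seen, the shares were 1.40% and 6.92%, for the 48-hour-only sites and the lasting regions. The window cut wider peaks and widened narrower ones. Of the 219 sites within 1 kb of an iHep Foxa3 peak, 4 (1.83%, 0.713% to 4.60%) and 14 of the other 1140 (1.23%, 0.733% to 2.05%) held an iHep Hnf4a peak of the Foxa3 line. The size of the contrast depended on how peaks were matched. When Foxa peaks counted as the same site only if their centres lay within 200 bp, 6.73% (5.81% to 7.79%) of 2480 48-hour-only sites and 7.34% (6.47% to 8.32%) of the lasting regions held an iHep Hnf4a peak of the Foxa3 line, and these intervals overlap. With all 6 Foxa lists cut to the same length the shares were 4.48% of the 48-hour-only sites and 11.6% of the lasting regions. For sites seen only at 48 hours for the other proteins, the comparison depended on the line of the Hnf4a list. At iHep Hnf4a peaks of the Foxa3 line lay 1.32% of the Foxa3 sites, 0.413% (0.242% to 0.706%) of the Foxa2 and 0.371% (0.170% to 0.806%) of the Foxa1 regions. In the Foxa2 line the share was 1.18% (0.726% to 1.90%) of the Foxa3 sites and 0.731% (0.488% to 1.09%) of the Foxa2 regions. In the Foxa1 line it was 0.736% (0.400% to 1.35%) of the Foxa3 sites and 0.741% (0.425% to 1.29%) of the Foxa1 regions. In these lines the intervals overlap.

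**Figure D5:**
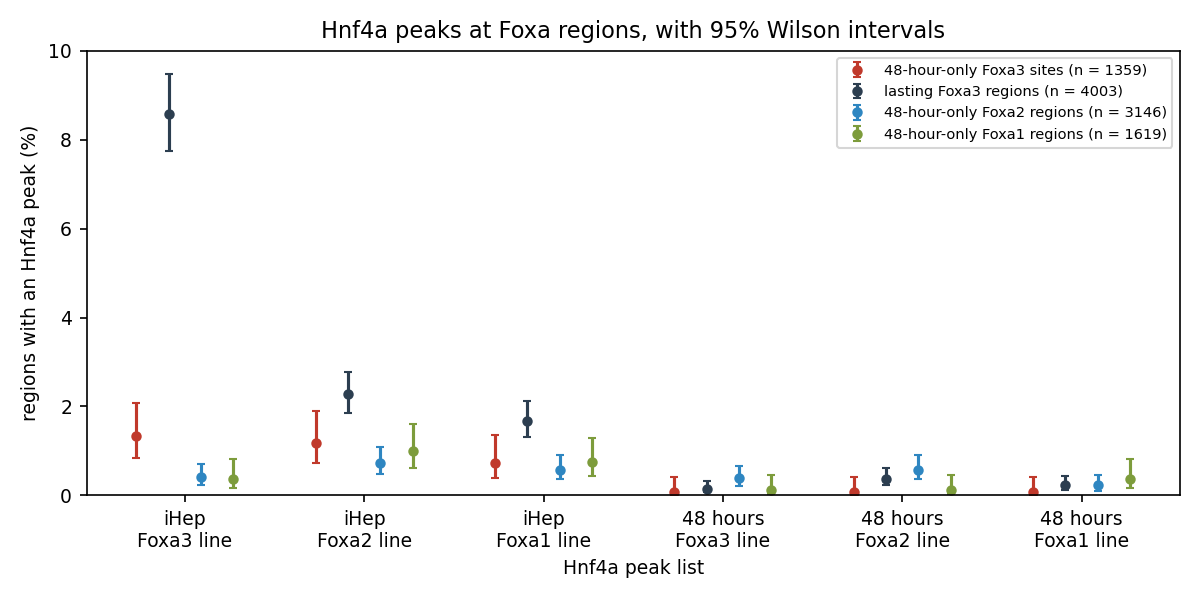
Percent of regions that overlap an Hnf4a peak in each of the 6 Hnf4a lists, with 95% Wilson intervals, for sites seen only at 48 hours for Foxa3, lasting Foxa3 regions, and regions seen only at 48 hours for Foxa2 and for Foxa1. In iHep cells of the Foxa3 line the 48-hour-only Foxa3 sites are at 1.32% and the lasting regions at 8.57%, and all 4 groups are at or below 0.572% in the 48-hour lists.

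In all, 30 of the 1359 sites (2.21%, 1.55% to 3.13%) overlapped a peak of at least 1 of the 6 Hnf4a lists, against 10.4% (9.48% to 11.4%) of the lasting regions and 6.24% of all Foxa regions. An iHep list accounted for 29 of these sites. Of those, 10 were in the Foxa3 line alone, 11 in the Foxa2 or Foxa1 line and not in the Foxa3 line, and 8 in the Foxa3 line together with another. Among lasting regions, 287 of the 411 with an iHep Hnf4a peak had it in the Foxa3 line alone. The Foxa3 line alone thus accounts for a smaller part of the iHep Hnf4a overlaps at the 48-hour-only sites than at the lasting regions.

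The 4 sites held by 3 Hnf4a lists each scored close to or below the median of the 48-hour-only sites. Those at chr12:17006406-17007191 (score 12.2), chr7:136735185-136735751 (11.9) and chr15:75724508-75725019 (9.24) held iHep Hnf4a peaks in all 3 lines. The site at chr11:99091530-99091863, 334 bp wide with a score of 9.92, held Hnf4a peaks of the Foxa3 line in iHep cells and at 48 hours and of the Foxa2 line at 48 hours. It was the only 48-hour-only site at which Foxa3 and Hnf4a peaks of the Foxa3 line overlapped at 48 hours. The fifth in order, at chr12:88488194-88489077 with a score of 24.97, held iHep Hnf4a peaks in the Foxa3 and Foxa2 lines. All 5 lay at least 14407 bp from an iHep Foxa3 peak.

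The iHep Hnf4a peaks of the Foxa3 line at the sites had scores like those of their whole list. There were 22 of them at the 18 sites, with a median score of 10.5 beside 10.2 in the whole list, and their centres lay 8.5 to 285 bp from the centre of the Foxa3 peak, with a median of 136 bp. In the Foxa2 line the 16 peaks had a median score of 10.1 beside 13.0 in the list. The sites with an Hnf4a peak and a high Foxa3 score were few. The strongest was a peak of 2559 bp at chr1:188527475-188530033, with a Foxa3 score of 47.8 and an iHep Hnf4a peak of the Foxa3 line, 509408 bp from the nearest iHep Foxa3 peak.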

How the data were processed

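ChIP-seq peak lists of 13 of the 21 samples were used. The other 8 samples are inputs, whose own data were not analysed here. Each deposited list belongs to 1 sample and gives chromosome, start, end, name and a score per peak. The authors' score has no stated definition, so it was used only within a list. Tools listed in the submitters' processing notes are MACS2 2.1.0, bedtools 2.16.2 and BWA 0.6.2, with no role given, and the build listed is mm9. Whether inputs entered the peak calling is not stated. Coordinates count from 1. The gene and promoter tables at hand are on another build, so no gene name or sequence was assigned.

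Samples were grouped by their titles, with 1 library per group. The 6 Foxa lists were merged at 1 bp of overlap. A region's score and width are those of its highest scoring 48-hour Foxa3 peak. Hnf4a overlap means 1 bp or more. Gaps are the bases between peak edges. Named regions are the 10 highest scoring sites, the 5 in most Hnf4a lists, any with a 48-hour Hnf4a peak of the Foxa3 line, and the extremes of the gap to iHep Foxa3 and of the overlap rule. The strongest site with an Hnf4a peak and the runs were named after their values were seen. The members and lists were chosen with earlier results of these data known. Alternatives covered the matching of peaks, limits on score, list length, the distance, chromosome X, dense Hnf4a blocks and the runs. Merging, gaps and overlaps were tested on simulated data. Scripts ran under Python 3.11.15 with pandas 2.3.3, NumPy 2.4.6 and SciPy 1.17.1, and figures were drawn with matplotlib 3.10.9.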

Additional observations from a re-analysis of the deposited data

How the results depend on the processing

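With 1 library per group no test was run, and depth is unknown, so a site that is missing from a list cannot be told from one too shallow to be called. The median score of the 48-hour-only sites was below that of the lasting regions in 11 of 11 alternatives, the median width in 10 of 11, and the share with an iHep Hnf4a peak of the Foxa3 line in 16 of 16. In 2 of these 16, both with centres matched within 200 bp, the intervals of the Hnf4a shares overlap. Leaving out the X chromosome moved none of the main values beyond their intervals. The dense Hnf4a blocks held 0 of the sites, so leaving them out could not change the values of the sites. That alternative is among those counted above. The cause of the changes under the other alternatives was not tested.

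The values depend on what counts as the same site. When peaks were matched by centres within 200 bp, 2480 sites (43.6%) were seen only at 48 hours, with medians of 13.4 for score and 560 bp for width, against 15.4 and 526 bp at lasting regions, so the order of the widths turned. Of them 61.4% had an iHep Foxa3 peak within 10 kb, 6.73% an iHep Hnf4a peak of the Foxa3 line (lasting regions, 7.34%) and 0.766% a 48-hour one (lasting regions, 0.130%). Leaving out the dense Hnf4a blocks as well gave 6.78% in iHep cells (lasting regions, 7.34%) and 0.122% at 48 hours (lasting regions, 0.130%). Requiring an overlap of 50% of the shorter peak gave 26.9% of the list and 38.9% within 10 kb. Merging peaks within 500 bp gave 20.4%, a score of 12.03 and 19.4% within 10 kb. Requiring no other Foxa peak within 1 kb gave 20.004% and 18.5%. Using only the Foxa3 lists gave 26.2%, with 1.84% at 48-hour Hnf4a peaks (lasting regions, 0.145%), and 0.0694% without the dense blocks. Both combinations with the blocks were chosen after seeing the data, and the blocks come from the 48-hour Hnf4a lists themselves.

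Limits on score changed the counts too. With the upper 50% of all 6 lists there were 728 sites (25.9%), with medians of 18.6 and 612.5 bp against 22.3 and 700 bp at lasting regions, 59.9% within 10 kb, and 2.75% at iHep and 0% at 48-hour Hnf4a peaks of the Foxa3 line. With the upper 50% of the 48-hour Foxa3 list alone there were 375 (13.3%), with medians of 18.7 and 616 bp against 21.4 and 683.5 bp, 22.9% within 10 kb and 0% at 48-hour Hnf4a peaks. With all lists cut to the 3435 peaks of the shortest, the share was 47.3%, the medians 17.0 and 586 bp against 22.3 and 693 bp, 75.3% lay within 10 kb and 4.48% at iHep Hnf4a peaks. The upper 50% of the Hnf4a lists left 0% at 48-hour Hnf4a peaks, and Hnf4a peaks within 500 bp gave 2.87% in iHep cells. An iHep Foxa3 peak lay within 1 kb of 16.1% and within 100 kb of 69.2%. Without the runs, an alternative chosen after seeing the data, the share was 23.0%. No paired analysis was possible because each group has 1 library and no test was run.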

Other observations

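The list of the tagged del2 mutant of Foxa3, whose title gives 48 hours and whose stage label gives iHep, held 1 peak, which overlapped 0 of the 1359 sites. The 48-hour Hnf4a lists held 3 dense blocks, in which 5 or more peaks with gaps of up to 2 kb lay in the lists of all 3 lines. These blocks held 0 of the sites.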
